A study of Mus musculus with 12 samples.

Results

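The CCN and thrombospondin families are secreted matricellular proteins, and the 10 genes described here are *Ccn1* to *Ccn5* (older names *Cyr61*, *Ctgf*, *Nov*, *Wisp1* and *Wisp2*) and the thrombospondins *Thbs1*, *Thbs2*, *Thbs3*, *Thbs4* and *Comp*. They were taken by gene symbol from 37991 Ensembl gene identifiers in the count files, and all 10 were found. No numeric cut-off on expression was applied, but the list was chosen by someone who had seen the expression values and fold changes of these same samples, so counts over the members are descriptions and lend no support of their own. *Ccn6*, the remaining CCN gene, was left out of the list and had between 1 and 18 counts in a library. The CCN genes lie on chromosomes 3 (*Ccn1*), 10 (*Ccn2*), 15 (*Ccn3* and *Ccn4*) and 2 (*Ccn5*), and the thrombospondin genes on chromosomes 2 (*Thbs1*), 17 (*Thbs2*), 3 (*Thbs3*), 13 (*Thbs4*) and 8 (*Comp*).

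RNA-seq was performed on primary mouse embryonic fibroblasts (MEFs) of the FVB strain, either wild-type or homozygous for the *E2f1* 3KR allele (*E2f1* 3KR/3KR, here 3KR), in which the acetylated lysines of the transcription factor E2F1 are replaced by arginine. The cells came from embryos of day 13.5 and were at passage 3. They were either left untreated or exposed to the radiomimetic drug neocarzinostatin (NCS), which breaks DNA, at 250 ng/ml for 3 h. Each of the 4 groups had 3 samples. The knock-in is carried in every cell of the embryo, NCS was given at a single dose and time, and the labels do not say whether samples of a group came from separate embryos or cultures, so the p-values measure the spread between these samples, which may be technical. The comparisons ask how the allele alters expression before and after DNA damage.

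CCN proteins are built from cysteine-rich modules that bind integrins, heparan sulfate proteoglycans and growth factors. CCN1 and CCN2 are early products of the YAP-TEAD and SRF pathways and of TGF-beta signalling in fibroblasts, and CCN5 differs from them in lacking the C-terminal module. Thrombospondins are calcium-binding glycoproteins, and members of the family bind CD36, CD47 and integrins, though not every member binds each of them. Thrombospondin 1 and 2 inhibit the growth of blood vessels and the former can release active TGF-beta from its latent form, while thrombospondin 3, thrombospondin 4 and COMP of cartilage and tendon lack the repeats involved.

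RefSeq promoter sequences of GRCm38.p6 were at hand for 4 of the 10 genes, *Ccn1*, *Thbs2*, *Thbs3* and *Thbs4*, whereas the counts were made on the mm9 build. The 250 bases before the start are shown for *Ccn1* and *Thbs4*, because the former was lower in 3KR cells and the latter had the largest difference between genotypes of the 10. The *Ccn1* window lies at chr3:145649986-145650235 and the *Thbs4* window at chr13:92794819-92795068, both read 5′ to 3′ on the minus strand. Capitals mark CATTCC, the core of the TEAD motif, and in *Ccn1* also TATAAA and ACGTCA, the latter being TGACGT, the core of the cAMP response element, on the opposite strand.
Ccn1: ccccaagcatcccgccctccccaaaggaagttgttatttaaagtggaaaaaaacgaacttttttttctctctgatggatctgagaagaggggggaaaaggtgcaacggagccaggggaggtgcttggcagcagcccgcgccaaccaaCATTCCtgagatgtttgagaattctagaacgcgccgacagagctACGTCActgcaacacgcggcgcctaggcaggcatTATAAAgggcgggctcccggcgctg
Thbs4: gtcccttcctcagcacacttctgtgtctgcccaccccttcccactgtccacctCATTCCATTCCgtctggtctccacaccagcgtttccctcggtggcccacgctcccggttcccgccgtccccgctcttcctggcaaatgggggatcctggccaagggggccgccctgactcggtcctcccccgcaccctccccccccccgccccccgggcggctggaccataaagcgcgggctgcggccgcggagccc

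The CATTCC core stood 103 bases before the *Ccn1* start, and the TATAAA box began 25 bases before it. In *Thbs4* there were 2 overlapping CATTCC matches, 197 and 192 bases before the start. On either strand CATTCC was present in 12.6% of 32851 promoter windows of this length, TATAAA in 12.4% and TGACGT in 6.47%. Neither the *Thbs2* nor the *Thbs3* window held CATTCC. *Thbs2* held TATAAA on the opposite strand, and CCAAT, found in 33.8% of windows, was present in *Thbs2* and *Thbs3*. *Thbs2* and *Thbs4* held the SMAD motif CAGAC (42.2% of windows). No match to the E2F sites TTTCCCGC, TTTCGCGC, TTTGCCGC and TTTGGCGC (1.86% of windows), to the AP-1 site TGANTCA (6.75%), to the CArG box of SRF (1.47%) or to the p53 decamer (7.13%) was present in the 4 windows. A match is a description of letters and not a measured binding site.

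The libraries held between 33203757 and 45279321 counted reads (median 37623686.5), a depth at which the 3-count floor was between 0.0663 and 0.0904 CPM (counts scaled to library size). Both wild-type libraries numbered 3 stood apart: their chi-square against the rest of their group averaged 7.59 to 9.40 for a gene, compared with 2.25 and 2.26 between replicates 1 and 2 and 2.03 to 2.33 among 3KR libraries. *E2f1* RNA did not pass the test between genotypes (log2 fold change -0.03 ± 0.063 SE untreated, false discovery rate (FDR) 0.710), and since 3KR changes codons, its level does not check the labels. *Xist* had 30590.1 to 35635 normalised counts in 3KR and 32.3 to 62.5 in wild-type libraries, and Y-linked *Ddx3y* at most 16.2 and between 5370.3 and 5822, respectively, so sex and genotype cannot be told apart in any genotype comparison. All 10 fibroblast markers tested were expressed, with a summed level of 43183 to 44547 CPM in wild-type and 49238 to 52446 CPM in 3KR libraries.

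Per length of transcript, *Thbs1* was by far the most abundant member. In RPKM (reads scaled to gene length and library size), computed here with exon lengths of GRCm38, *Thbs1* had a mean of 1890.4 over the 12 samples and ranked 9th of 32919 genes, and it held 1.14% to 1.17% of all counted reads by group. *Ccn2* followed with 482 RPKM, *Ccn1* with 449 and *Thbs2* with 238. *Comp* closed the order with 1.76 RPKM. In untreated wild-type cells the order was *Thbs1*, *Ccn2*, *Ccn1*, *Thbs2*, *Ccn4*, *Ccn5*, *Ccn3*, *Thbs3*, *Comp* and *Thbs4*, with no overlap between neighbours in the 3 samples. In untreated 3KR cells *Ccn1* stood before *Ccn2*, *Ccn5* before *Ccn4*, and *Thbs4* before *Comp*, again with no overlap between neighbours. Treatment with NCS left each genotype's order as it was.

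**Figure D1:**
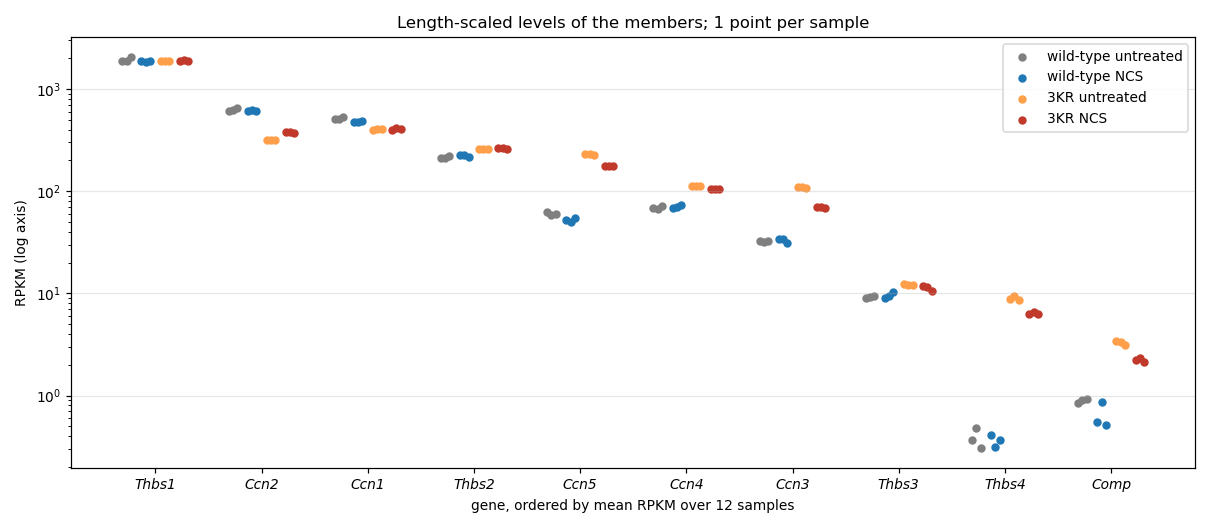
RPKM of the 10 genes (y axis, log scale) in each of the 12 samples, 1 point per sample, coloured by group, with genes ordered by mean RPKM. *Thbs1* lies near 1890.4 RPKM in all groups, whereas *Thbs4* and *Comp* lie below 1 RPKM in every wild-type sample and above 2 in every 3KR sample.

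In untreated cells, 3KR MEFs had less *Ccn1* and *Ccn2* RNA than wild-type MEFs and more *Ccn3*, *Ccn4*, *Ccn5*, *Thbs2*, *Thbs3*, *Thbs4* and *Comp* RNA. Thus 9 of the 10 members were called at an FDR under 0.05, 7 higher and 2 lower, in a comparison in which 45.7% of 15327 tested genes were called (22.1% higher and 23.6% lower). The samples of the genotypes did not overlap for the same number of members, 9, against 53.5% of all tested genes. The median log2 fold change of the members was 0.54 and that of all genes -0.00. In bulk RNA, fewer cells of a type and less RNA per cell cannot be told apart.

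**Figure D2:**
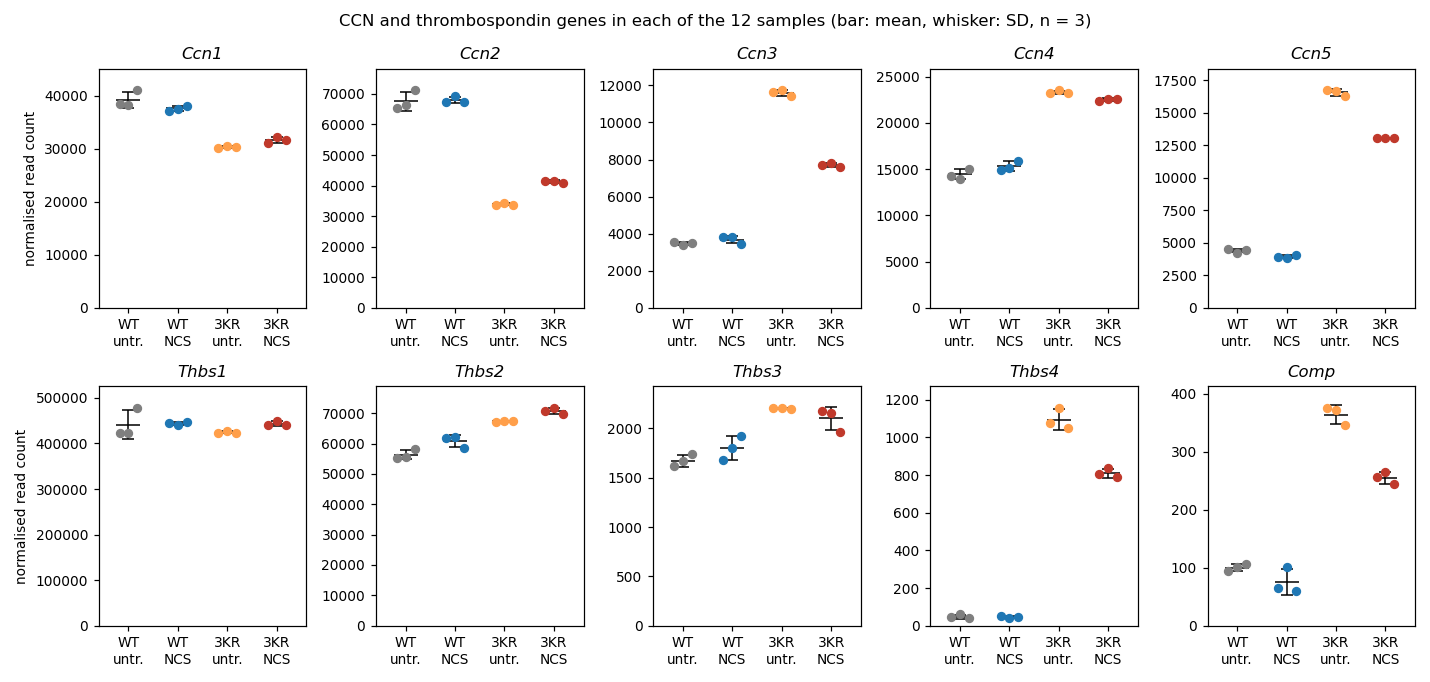
Normalised read counts (y axis from 0) of the 10 genes in each sample, with the mean (bar) and SD (whisker) of the 3 samples per group. *Ccn1* and *Ccn2* are lower and *Ccn3*, *Ccn4*, *Ccn5*, *Thbs4* and *Comp* are higher in all 6 3KR samples than in any wild-type sample.

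*Ccn2* encodes connective tissue growth factor, a profibrotic CCN protein. Its normalised read counts in untreated cells were 65379, 66358 and 71191 in wild-type and 33684, 34264 and 33784 in 3KR samples. The genotypes did not overlap, and the 3KR level was below that of every wild-type library (log2 fold change -1.002 ± 0.028 SE, 0.499-fold, FDR 8.43e-19). *Ccn1*, which encodes the integrin ligand CYR61, had 38459, 38293 and 40978 normalised counts in wild-type and 30042, 30466 and 30346 in 3KR samples. It was also lower in all 3KR samples, but by less (log2 fold change -0.38 ± 0.028, FDR 4.96e-11).

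*Ccn3*, *Ccn4* and *Ccn5* were higher in 3KR cells. *Ccn5*, the family member without the C-terminal module, had 4507, 4249.7 and 4427 normalised counts in wild-type and 16732, 16676 and 16297 in 3KR samples. The groups were far apart (log2 fold change 1.91 ± 0.033, 3.75-fold, FDR 1.16e-22), ranking 10th of all tested genes by FDR. *Ccn3*, a CCN protein known to act against the profibrotic effects of CCN2, had 3533, 3393 and 3518 normalised counts in wild-type and 11661, 11736 and 11408 in 3KR samples (log2 fold change 1.73 ± 0.037, 3.32-fold, FDR 5.73e-21). The 3KR libraries were all above the wild-type ones and differed little among themselves. *Ccn4*, known as a Wnt-induced gene, had 14290.1, 13983 and 15017 normalised counts in wild-type and 23241, 23529 and 23258 in 3KR samples, again without overlap (log2 fold change 0.69 ± 0.031, FDR 5.13e-15).

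Of the thrombospondins, *Thbs4*, a matrix protein of tendon and muscle, had the largest difference between genotypes. It had 55, 59 and 37 reads in the untreated wild-type libraries and 1069, 1111 and 1155 in the 3KR libraries, or 45.6, 59.9 and 38.3 against 1077, 1155 and 1050.2 normalised counts. No wild-type library came near the 3KR level (log2 fold change 4.51 ± 0.10, 22.7-fold, FDR 1.10e-20), and its absolute fold change ranked 17th of the 15327 genes tested. *Comp*, the cartilage oligomeric matrix protein, had 93.6, 101 and 106 normalised counts in wild-type and 375, 371 and 346 in 3KR samples, a low level in both (log2 fold change 1.86 ± 0.13, 3.62-fold, FDR 1.65e-11). These 2 genes are the least abundant members, and their values rest on 37 to 113 reads per untreated wild-type library.

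*Thbs2* and *Thbs3* were slightly higher in 3KR cells. *Thbs2*, an inhibitor of angiogenesis, had 55277, 55637 and 58264 normalised counts in wild-type and 67130.1, 67304 and 67401 in 3KR samples, which did not overlap (log2 fold change 0.25 ± 0.027, FDR 4.56e-08). *Thbs3* had 1614, 1667 and 1737 against 2203, 2205 and 2194 (log2 fold change 0.39 ± 0.049, FDR 4.55e-07), again with no overlap. *Thbs3* shares exonic sequence with *Mtx1* on the opposite strand, and the strand setting of the counting is not given in the sources used here. *Mtx1* had a log2 fold change of -0.03 ± 0.047 in this comparison (FDR 0.627).

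*Thbs1*, which encodes thrombospondin 1, was the member that was not called. It had 423928, 423252 and 477489.7 normalised counts in untreated wild-type and 423755, 427889 and 423644 in untreated 3KR samples. Wild-type replicate 3 alone stood above the rest, and the groups overlapped (log2 fold change -0.06, 95% interval -0.12 to -0.00087, FDR 0.0922). Without that library the log2 fold change was 0.00020 (FDR 0.993), and without wild-type replicate 1 or 2 it was -0.09 in both cases (FDR 0.0181 and 0.0144, respectively).

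After NCS treatment the same 9 members were called between the genotypes in the same directions, 7 higher and 2 lower in 3KR cells, with 46.5% of all genes called (22.9% higher and 23.6% lower) and 9 members without overlap against 54.3% of all genes. These are other libraries of the same genotypes and not an independent experiment. The log2 fold changes were -0.25 ± 0.028 for *Ccn1*, -0.72 ± 0.028 for *Ccn2*, 1.07 ± 0.037 for *Ccn3*, 0.56 ± 0.031 for *Ccn4* and 1.73 ± 0.033 for *Ccn5*. Among the thrombospondins they were 4.12 ± 0.11 for *Thbs4*, 1.75 ± 0.14 for *Comp*, 0.22 ± 0.027 for *Thbs2* and 0.22 ± 0.049 for *Thbs3*. The FDR of these 9 members was at most 0.000652. *Thbs1* had 444292, 441221 and 446141 normalised counts in wild-type and 441716, 449523 and 440267 in 3KR samples, so that the groups overlapped (log2 fold change -0.00014, 95% interval -0.06 to 0.06, FDR 0.997). Neither count of 9 nor its directions altered without both wild-type libraries numbered 3, a setting chosen after seeing the data.

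**Figure D3:**
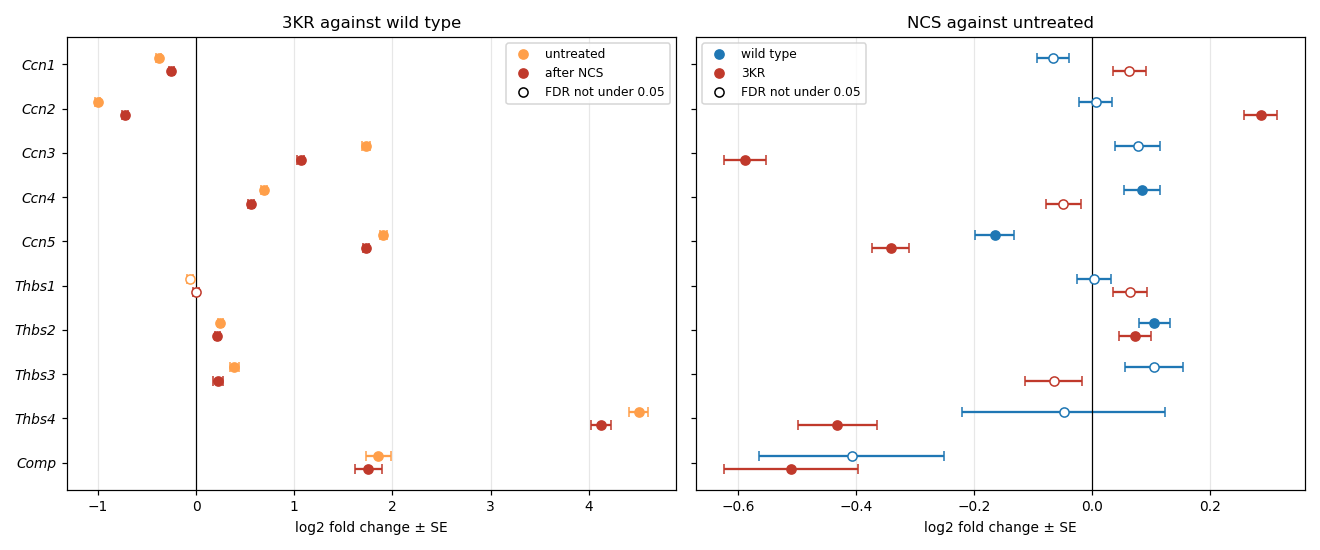
Log2 fold changes (x axis) ± SE of the 10 genes, for 3KR against wild-type (left, untreated and after NCS) and for NCS against untreated (right, wild-type and 3KR). Filled points have an FDR under 0.05; on the left *Thbs4* reaches 4.51 and *Ccn2* -1.002, and on the right *Ccn2* and *Ccn3* in 3KR cells lie at 0.29 and -0.59.

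The makeup of CCN expression differed between genotypes. In untreated wild-type cells *Ccn1* and *Ccn2* together made up 87.6% ± 0.349 (SD, n = 3) of the summed RPKM of the 5 CCN genes, and in untreated 3KR cells 61.4% ± 0.301. *Ccn5* alone made up 4.65% ± 0.205 and 19.7% ± 0.232, respectively, and *Ccn3* 2.47% ± 0.0892 and 9.25% ± 0.0924. The summed CCN level itself was 1303 ± 39.7 RPKM in untreated wild-type and 1168 ± 5.22 RPKM in untreated 3KR cells, with no overlap. Within a sample, the ratio of *Ccn2* to *Ccn1* RPKM was 1.22 ± 0.0144 in wild-type and 0.790 ± 0.00412 in 3KR cells, an exact permutation p of 0.1 (two-sided), the smallest that 3 against 3 samples can give (0.114 after adjustment over 8 such tests). Such ratios do not depend on the scaling of the libraries. The summed thrombospondin level, which *Thbs1* dominates, was 2151 ± 123 RPKM in untreated wild-type and 2152 ± 5.87 RPKM in untreated 3KR cells.

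**Figure D4:**
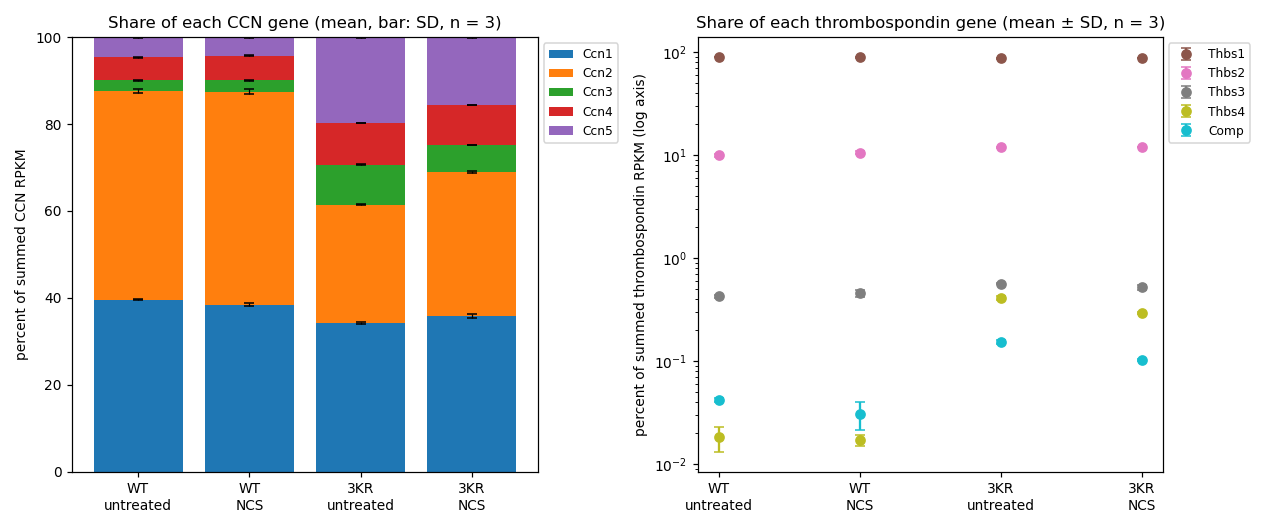
Share of each CCN gene in the summed CCN RPKM (left, stacked bars of group means with SD, percent axis from 0 to 100) and of each thrombospondin in the summed thrombospondin RPKM (right, means ± SD, log axis). *Ccn3*, *Ccn4* and *Ccn5* together take 12.4% in untreated wild-type and 38.6% in untreated 3KR cells, and *Thbs1* takes 86.9% to 89.6% of the thrombospondin signal in all groups.

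In wild-type cells the differences between NCS-treated and untreated samples were small. *Ccn4* (log2 fold change 0.08 ± 0.031, FDR 0.0459) and *Thbs2* (0.11 ± 0.027, FDR 0.00478) rose, and *Ccn5* fell (-0.17 ± 0.033, FDR 0.000579). These 3 called members compare with 26.7% of all genes (14.3% higher and 12.4% lower). The samples did not overlap for 3 members, *Ccn1*, *Ccn5* and *Thbs2*, against 35.1% of all genes. The median log2 fold change of the members was 0.00 and that of all genes 0.01.

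*Ccn5* fell from between 4249.7 and 4507 normalised counts to 3941, 3792 and 4062, all below the untreated samples. *Thbs2* rose from between 55277 and 58264 to 61926, 62040.4 and 58495. *Ccn2* had 67475, 69292 and 67500.4 normalised counts after NCS, within the range of the untreated wild-type samples (log2 fold change 0.01, 95% interval -0.05 to 0.06, FDR 0.914), and *Thbs1* likewise overlapped (0.00, interval -0.06 to 0.06, FDR 0.947). *Comp* had 64.6, 100.5 and 59.7 normalised counts after NCS, and the middle sample lay within the untreated range (log2 fold change -0.41 ± 0.16, FDR 0.0585). Without that sample, NCS replicate 2, *Comp* was called (-0.69, FDR 0.00169), as it was with no filter (FDR 0.0415) and with at least 10 counts in every sample (FDR 0.0491). The call of *Ccn4* was lost without untreated replicate 1 or 2 or NCS replicate 2 or 3 (FDR 0.0671 to 0.216).

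Wild-type samples of the same replicate number deviated together, but replicates 1 and 2 did so across numbers as well, so only the libraries numbered 3 were set apart. A fit with the replicate number within each genotype as a block called 7 members, 4 higher and 3 lower, with 34.2% of all genes called (18.5% higher and 15.7% lower). It added *Ccn1* (log2 fold change -0.07, FDR 0.00742), *Ccn3* (0.08, FDR 0.0499), *Thbs3* (0.10, FDR 0.0396) and *Comp* (-0.43, FDR 0.0258). Without both wild-type libraries numbered 3, chosen after seeing the data, the count was also 7, but 5 higher and 2 lower, with 32.7% of all genes called (17.8% higher and 14.9% lower). There *Thbs1* (0.06) and *Ccn2* (0.05) were among those called and *Comp* (-0.23, FDR 0.351) was not. Scaled to library totals, the called members were 0 higher and 3 lower, namely *Ccn1*, *Ccn5* and *Comp*, a scaling that moved the median of all genes by -0.05.

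In 3KR cells the response to NCS was larger for several members. *Ccn2* and *Thbs2* rose, and *Ccn3*, *Ccn5*, *Thbs4* and *Comp* fell, so that 6 of the 10 were called against 30.8% of all genes (15.8% higher and 15% lower). For all 10 members the treated and untreated 3KR samples did not overlap, against 47.6% of all genes. The median log2 fold change of the members was -0.06 and of their absolute values 0.18, against 0.14 over all genes. Scaled to library totals the 6 called members were 1 higher and 5 lower, with *Ccn4* (-0.09) in place of *Thbs2*.

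*Ccn3* had 11661, 11736 and 11408 normalised counts before and 7731, 7795 and 7595 after NCS, a fall in all 3KR samples (log2 fold change -0.59 ± 0.036, 0.665-fold, FDR 1.10e-11). *Ccn2* went the other way, from 33684, 34264 and 33784 to 41542, 41596 and 40716 (log2 fold change 0.29 ± 0.028, FDR 3.07e-08). Even so, the treated 3KR samples remained below the wild-type ones for *Ccn2* and above them for *Ccn3*. *Ccn5* fell from 16732, 16676 and 16297 to 13054, 13082 and 13038 (-0.34 ± 0.031, FDR 1.15e-08).

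*Thbs4* fell from 1077, 1155 and 1050.2 normalised counts to 804, 837 and 789.9 (log2 fold change -0.43 ± 0.067, FDR 2.38e-05), and *Comp* from 375, 371 and 346 to 256, 265 and 244 (-0.51 ± 0.11, FDR 0.00123). *Thbs2* had a small rise (0.07 ± 0.027, FDR 0.0439) that was lost without any of the 6 libraries compared (FDR 0.0630 to 0.154). *Ccn1* (0.06), *Ccn4* (-0.05), *Thbs1* (0.06) and *Thbs3* (-0.07) were not called, with an FDR between 0.0881 and 0.338. With only the 3KR samples in the fit 9 members were called, 4 higher and 5 lower, adding *Ccn1* (FDR 0.000711), *Ccn4* (FDR 0.00591) and *Thbs1* (FDR 2.62e-08) at nearly the same fold changes. *Mtx1*, which overlaps *Thbs3*, had a log2 fold change of 0.13 ± 0.047 (FDR 0.0384).

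The difference between the genotypes in their response to NCS was tested directly, and 3 members were called against 3.73% of all genes (1.86% higher and 1.87% lower). The response of *Ccn2* was higher in 3KR than in wild-type cells by 0.28 ± 0.039 on the log2 scale (FDR 0.000120). Those of *Ccn3* (-0.67 ± 0.052, FDR 4.81e-08) and *Ccn5* (-0.18 ± 0.046, FDR 0.0300) were lower. *Ccn3* ranked 3rd of the 15327 genes by FDR in this test. Since the same samples enter the genotype comparisons, the smaller distance of *Ccn2* and *Ccn3* between the genotypes after NCS is another reading of the same values.

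*Ccn1* did not pass this test (0.13 ± 0.039, FDR 0.0675), although its treated samples lay below all untreated ones in wild-type cells, at 37171, 37546 and 38035 normalised counts, and above all untreated ones in 3KR cells, at 31031, 32149.8 and 31608. Its difference passed with library totals (FDR 0.0354), the DESeq2 test (0.0433), no filter (0.0436), at least 10 counts in every sample (0.0187) and without wild-type untreated replicate 2 or 3 or wild-type NCS replicate 3 (0.0356 to 0.0493). For *Thbs4* the difference was -0.38 (95% interval -0.77 to 0.000032, FDR 0.307), an interval that includes a difference as large as that of *Ccn3*. The *Ccn5* call was lost without wild-type untreated replicate 2, wild-type NCS replicate 1 or any of the 6 3KR libraries (FDR 0.0562 to 0.0943). The replicate block also joins same-numbered 3KR samples, which did not deviate together. With this block 6 members were called, 2 higher and 4 lower, with 9% of all genes called (4.9% higher and 4.1% lower). It added *Ccn1* (0.13, FDR 0.00173), *Ccn4* (-0.13, FDR 0.00281) and *Thbs3* (-0.17, FDR 0.0427). Without both wild-type libraries numbered 3 the count was also 6, with *Ccn1*, *Ccn4* and *Thbs2* (-0.09) added and 11.8% of all genes called (6.01% higher and 5.82% lower).

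Genes of the pathways around the 2 families were read from lists that were also chosen with results known, and their counts stand beside 22.1% higher and 23.6% lower of all tested genes in this comparison. Among 20 Hippo pathway components, which restrain or mediate YAP and TAZ, 11 were lower and 2 higher in untreated 3KR cells, with a median log2 fold change of -0.13 (all genes -0.00). They included the scaffold *Amot* (-0.61 ± 0.049) and the DNA-binding partner *Tead2* (-0.33 ± 0.037). Of 20 other YAP and TAZ target genes 10 were lower and 6 higher, with a median of -0.15. The lowest p-values of that list were those of 2 of the higher genes, *Nt5e* (1.83 ± 0.064), an enzyme that makes adenosine, and *Ccdc80* (1.19 ± 0.029). Of 15 genes of the SRF and MRTF pathway, which couples actin to transcription, 11 were lower and 1 higher, with a median of -0.27, among them the smooth muscle genes *Actg2* (-0.85 ± 0.032) and *Cnn1* (-0.67 ± 0.033).

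Of 18 genes of TGF-beta ligands, receptors, binding proteins and targets 8 were lower and 6 higher, such as the co-receptor *Tgfbr3* (1.52 ± 0.059). Among 18 receptors and partners of CCN and thrombospondin proteins 9 were lower and 6 higher in untreated 3KR cells. The fibronectin receptor subunits *Itga5* (-0.75 ± 0.027) and *Itgb1* (-0.56 ± 0.022) had the lowest p-values among the former. *Itgam* is both on this list and on that of macrophage markers. Of 15 other matricellular genes tested 8 were higher and 4 lower, with *Tnn*, tenascin N, at 717 ± 37.0 normalised counts (mean ± SD, n = 3) in wild-type and 6620.4 ± 58.9 in 3KR cells (log2 fold change 3.20 ± 0.043) and *Postn*, periostin, at 55485 ± 1635 and 189289 ± 762 (1.76 ± 0.023).

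**Figure D5:**
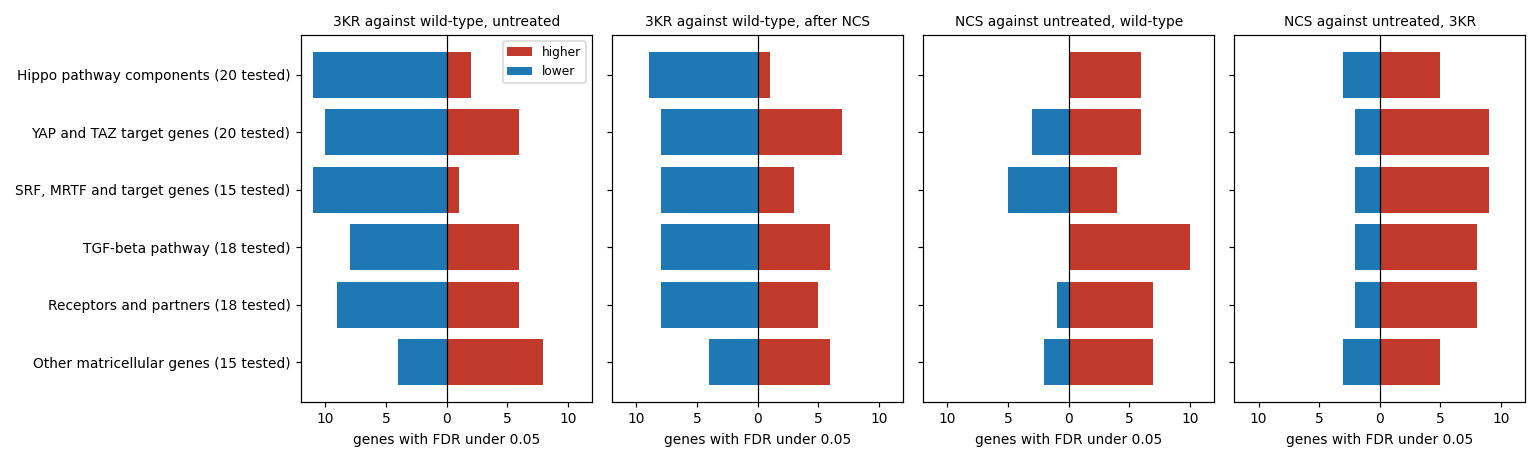
Number of genes (x axis) of 6 lists with an FDR under 0.05, higher (right, red) or lower (left, blue), in 4 comparisons, with the number tested beside each list name. Of the 15 SRF and MRTF genes 11 are lower and 1 higher in untreated 3KR cells, and 9 rise and 2 fall with NCS in 3KR cells.

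In the NCS comparisons 14.3% of all tested genes were higher and 12.4% lower in wild-type cells, 15.8% and 15% in 3KR cells, and 1.86% and 1.87% in the test of the difference. With NCS, 9 of the SRF and MRTF genes rose and 2 fell in 3KR cells, against 4 and 5 in wild-type cells. The immediate-early genes *Egr1* (-1.11 ± 0.040) and *Fos* (-0.55 ± 0.062) were among those that fell in wild-type cells. In the test of the difference 5 of the 15 were higher and 0 lower in 3KR cells (median 0.10, all genes 0.00). YAP and TAZ targets rose in 6 and fell in 3 cases in wild-type, and in 9 and 2 in 3KR cells, and the difference was called for 2 higher and 2 lower. *Ptpn14* (0.73 ± 0.034) and *Nuak2* (0.62 ± 0.049) had the lowest p-values among those that rose in wild-type cells. Of the TGF-beta list 10 rose and 0 fell in wild-type cells, including *Smad3* (0.37 ± 0.035) and *Skil* (0.23 ± 0.039), and 8 rose and 2 fell in 3KR cells. Of the Hippo components 6 rose and 0 fell in wild-type cells, *Frmd6* (0.47 ± 0.035) and *Mob1b* (0.36 ± 0.037) with the lowest p-values, against 5 and 3 in 3KR cells. The receptors rose in 7 cases and fell in 1 in wild-type cells, with *Notch1* at 0.43 ± 0.044 and *Sdc1* at 0.22 ± 0.030, and 8 rose and 2 fell in 3KR cells. Of the other matricellular genes 7 rose and 2 fell in wild-type cells, *Fbln5* (0.16 ± 0.026) and *Fbln2* (0.12 ± 0.020) with the lowest p-values, and 5 rose and 3 fell in 3KR cells.

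Markers of other cell types also differed between the genotypes, and their part in the members' differences was not tested. Chondrocyte markers, the cells in which COMP is best known, gave 3 higher and 2 lower of 7 tested in untreated 3KR cells. *Acan*, aggrecan, was higher (log2 fold change 2.68 ± 0.047) and the defining *Col2a1* lower (-1.23 ± 0.033). The summed level of the 9 listed genes was 690.3 to 699 CPM in untreated wild-type and 439 to 454 CPM in untreated 3KR libraries, with 2 of them at or under 3 counts in every library of either group. Most of that sum was *Col2a1*, with 23517 normalised counts in untreated wild-type and 10085 in untreated 3KR cells (group means). *Acan* had 677 and 4373, so the lower sum does not describe the list as a whole. Tendon markers, beside *Thbs4*, gave 2 higher and 2 lower of 4 tested, with *Scx* at 1.54 ± 0.095 and *Tnmd* at -0.75 ± 0.056, and a sum of 148 to 157 against 99.4 to 109.8 CPM. Osteoblast markers were higher in 3 of 3 tested, with *Sp7* at 1.64 ± 0.13 and *Alpl* at 1.84 ± 0.21. The osteoblast sum (33.1 to 37.0 against 51.5 to 53.9 CPM) was mostly the third, *Runx2*, at 1191 and 1554 normalised counts in untreated wild-type and 3KR cells. The other 2 of the 5 listed osteoblast genes had at most 2 counts in any library. Skeletal muscle markers were lower in 2 of 4, with *Des* at -1.53 ± 0.038 and *Acta1* at -0.62 ± 0.071 (139 to 145 against 53.2 to 57.2 CPM). These sums were nearly all *Des* and *Acta1*, since no other listed muscle gene had more than 31 counts in an untreated library.

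Schwann cell and neural crest markers were lower in 5 of 7 tested, with *Ngfr* at -2.17 ± 0.044 (205.8 to 211 against 43.2 to 44.3 CPM), and macrophage markers were higher in 8 of 8, with *Csf1r* at 1.30 ± 0.060 and *Itgam* at 1.34 ± 0.098 (47.9 to 54.9 against 105 to 110.2 CPM). Fibroblast markers were higher in 9 and lower in 1 of 10, *Pdgfra* (1.67 ± 0.032) and *Lum* (1.34 ± 0.040) with the lowest p-values. Of 5 endothelial markers tested *Erg* was higher (2.48 ± 0.080) and *Emcn* lower (-2.44 ± 0.42), with a sum of 10.2 to 10.5 CPM in untreated wild-type and 28.1 to 31.2 CPM in untreated 3KR libraries. The higher sum rested on *Erg*, with 161 ± 12.5 normalised counts in untreated wild-type and 910 ± 53.3 in untreated 3KR samples. No other listed endothelial gene had more than 164 counts in an untreated library. Epithelial markers were near 0, at 2.53 to 3.29 CPM in untreated libraries, with *Cdh1* (2.33 ± 0.35) and *Krt8* (2.38 ± 0.53) higher and 1 of the 3 tested lower. With NCS in wild-type cells 4 fibroblast markers rose and 1 fell, and in each other list at most 1 rose and at most 1 fell. With NCS in 3KR cells, where *Ccn3*, *Ccn5*, *Thbs4* and *Comp* fell, 1 fibroblast marker rose and 5 fell, and 3 Schwann cell markers fell. In the same cells 2 chondrocyte markers rose and 2 fell, and 2 tendon markers and 1 skeletal muscle marker rose. These counts stand beside 14.3% higher and 12.4% lower of all tested genes in wild-type cells, and 15.8% and 15% in 3KR cells. The endothelial sum there was 17.3 to 18.4 CPM (1 of 5 fell), with *Erg* at 502 ± 31.3 normalised counts, and the macrophage sum 91.5 to 95.3 CPM (2 of 8 fell).

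Over the 12 samples each member was compared with all other tested genes by Pearson's r of log2 CPM, as a description in which the points share genotype and treatment. The genes most like *Ccn5* were *Acan* (r 0.999), *Galnt17* and *Lsp1* (both 0.998), and those most like *Ccn3* were *Igsf10*, *Penk* (both 0.996) and *Erg* (0.995). *Thbs4* came closest to *Lpl*, *Col6a3* (both 0.998) and *Hey1* (0.997), and *Comp* to *Sgk3*, *Cyp4v3* (both 0.984) and *Irgm2* (0.983). For *Ccn2* the list was *Col7a1* (0.997), *Parvb* and *Akap12* (both 0.996), and for *Ccn1* *Dbn1* (0.993), *Chn1* (0.990) and *Cemip* (0.989). *Ccn4* was closest to *Adamts2*, *Adam23* (both 0.997) and *Tenm4* (0.996), *Thbs2* to *Ifi204* (0.984), *Gstm1* (0.983) and *Lig1* (0.982), and *Thbs3* to *Dhcr7* (0.976), *Nog* (0.967) and *Tgfbr2* (0.966). *Thbs1* had the lowest such values, among them *Dhx8* (0.881) and *Washc5* (0.876).

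Overlap with other genes touched 3 members. *Ccn2* overlaps *Gm15270* on the opposite strand, which had between 1 and 13 counts per library while *Ccn2* had at least 33684 normalised counts in every library, and *Thbs1* overlaps *Gm29233*, not analysed here. *Ccn6* passed the filter on low counts but was not called in any comparison, with a log2 fold change of 1.23 ± 0.80 between untreated genotypes (FDR 0.223).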

How the data were processed

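Stranded mRNA libraries from 12 MEF samples were analysed from the counts per gene that the authors deposited, 1 file per sample with Ensembl identifiers. The submitters' processing notes name TopHat, HTSeq, DESeq and the mm9 build; their versions and the strand setting of the counting are not given in the sources used here. Symbols, exon lengths and overlaps were taken from GENCODE M21 (GRCm38), which matched 32919 of 37991 identifiers.

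Genes passing filterByExpr (15327, all 10 members among them) were scaled by TMM and tested with the quasi-likelihood test of edgeR 4.0.16 in R 4.3.3, with 1 model of the 4 groups and Benjamini-Hochberg adjustment over all tested genes (FDR threshold 0.05). The difference in response was the interaction contrast. Normalised counts were divided by DESeq2 1.42.0 size factors, and RPKM used total counted reads. The common biological coefficient of variation was 3.95%. Intervals are at 95% and the floor of 3 counts covers counting error only. The fit was tested on simulated counts.

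The members and gene lists were chosen with earlier results of these data known. All members were named, as well as the 2 genes of each list with the lowest p for genotype in untreated cells and for NCS in wild-type cells and the 3 genes most like each member (log2 CPM with a prior count of 2), apart from 3 genes that are not reported here. Same-numbered wild-type samples, untreated and treated, deviated from their group means together over 9602 genes (correlations 0.267, 0.234 and 0.468). Untreated replicate 1 with NCS replicate 2 (0.223) and untreated replicate 2 with NCS replicate 1 (0.236) did so nearly as much. These correlations therefore set apart only the libraries numbered 3 and do not show that replicates 1 and 2 are paired by number. For NCS and for the difference in response the replicate block was the replicate number within each genotype. For the genotype comparisons it was the replicate number across all groups. The blocked values are given beside the results they change. Same-numbered 3KR samples (0.001, 0.050 and 0.002) and same-numbered samples of different genotypes (-0.030 to 0.023) did not deviate together. No labelled batch was present. Alternatives were other size factors, library totals, the DESeq2 test, other filters, the replicate block, only the samples compared and each sample left out.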

Additional observations from a re-analysis of the deposited data

Results flagged for a closer look

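The NCS response differed between the genotypes for 3 members by the test of the difference itself (edgeR's quasi-likelihood test, adjusted over 15327 genes). These were *Ccn2*, with a difference of 0.28 on the log2 scale (3KR minus wild-type, higher in 3 of 3 treated 3KR samples than in any untreated one), *Ccn3* with -0.67 (lower in 3 of 3) and *Ccn5* with -0.18 (lower in 3 of 3 in both genotypes). For *Ccn1* all treated samples lay below the untreated ones in wild-type and above them in 3KR cells, with a difference of 0.13 (FDR 0.0675). This difference missed the threshold, but it passed with library totals, the DESeq2 test, no filter, at least 10 counts in every sample, the replicate block, both wild-type libraries numbered 3 left out and 3 of the single libraries left out (FDR 0.000502 to 0.0493), at 0.10 to 0.15.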

How the results depend on the processing

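The 9 members called between the genotypes, untreated and after NCS, kept their direction and call under all 14 alternatives, and *Thbs1* decided the remaining variation. Its untreated difference was called with no filter (-0.05), with at least 10 counts in every sample (-0.07) and without wild-type untreated replicate 1 or 2, and it was 0.0061 without both wild-type libraries numbered 3 and between -0.091 and 0.00020 with single libraries left out, the latter without wild-type untreated replicate 3. After NCS its value near 0 became positive with library totals (0.019), no filter (0.0065), at least 10 counts (0.0086), only the samples compared (0.0053), without both wild-type libraries numbered 3 (0.0077) and with single libraries left out (-0.0084 to 0.0083). For NCS in wild-type cells the count of called members was 7 with the replicate block, 7 without both wild-type libraries numbered 3, 1 with only the samples compared and 2 to 5 with single libraries left out. *Ccn2* and *Thbs1* turned negative there with library totals (-0.042 and -0.043), at least 10 counts (-0.0081 and -0.0099), only the samples compared (-0.0089 and -0.011) and some single libraries left out (-0.018 to 0.045 and -0.027 to 0.064), and *Thbs4* (-0.17 to 0.13) turned positive without untreated replicate 2 or NCS replicate 2 (0.045). The call of *Thbs2* was lost with library totals (0.06) and only the samples compared (0.09). For the difference in response the count of members was 6 with the replicate block, 6 without both wild-type libraries numbered 3, 5 with the DESeq2 test, 5 with no filter and 2 to 5 with single libraries left out. That of all genes was 572, against 1379 with the block, 1842 without both wild-type libraries numbered 3 and 345 to 1159 with single libraries left out. With single libraries left out *Thbs1* ranged from -0.00046 (without wild-type untreated replicate 3) to 0.091 and *Comp* from -0.25 to 0.18 (without wild-type NCS replicate 2). In 3KR cells, whose numbers do not pair the samples, the block gave 8 called members in place of 6 and only the samples compared 9, and it altered no genotype call. Library totals moved the median of all genes by -0.05 in both NCS comparisons. The cause of these shifts was not tested.

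Low counts limit *Comp* and *Thbs4* in wild-type cells, where 37 to 113 counts per library leave intervals of the NCS response as wide as -0.73 to -0.08 and -0.40 to 0.31. With 3 samples a group an exact permutation test of a single value cannot go below p = 0.1. Sex and genotype cannot be told apart, and promoters were read for 4 of the 10 genes.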
